A study of Penicillium oxalicum with 15 samples.

Results

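A group of 172 genes of the filamentous fungus Penicillium oxalicum was examined, out of 9976 genes in the deposited table, of which 8765 reached 1 FPKM in at least 3 of the 15 libraries. FPKM is the number of sequenced fragments of a gene, scaled to the length of the gene and to the total of the library. The genes were chosen on differences between group means of log2(FPKM + 1). They were higher by at least 1 in the creA deletion strain than in the reference strain M12 on cellulose. In M12 they were not higher by 1 or more on cellulose than on glucose, and on glucose the strain gClrBID was within 1 of M12 in either direction. Of the tested genes, 476 (5.43%) met the first condition, 217 of these were left out because M12 was higher on cellulose than on glucose by 1 or more, and a further 34 and 53 because gClrBID was higher or lower than M12 on glucose by 1 or more. These 3 differences chose the genes and are given below as a description, without a test.

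The groups, of 3 libraries each, were the strain deltacreA, from which creA was deleted, on cellulose, the strain gClrBID, labelled as overexpressing a ClrB activator with an internal mutation, on cellulose and on glucose, and M12 on cellulose and on glucose. All mycelia were grown for 22 h in Vogel's medium with 2% glucose, filtered, and moved for 4 h into medium with 2% (w/v) cellulose or glucose at 30 °C and 200 rpm. The series text calls the libraries biological triplicates and says nothing more of the cultures, so each p-value reflects no more than library-to-library spread. The promoter that drives the ClrB mutant and the number of clones of each strain are not given in the sources used here. None of the 15 libraries was of the creA deletion on glucose.

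CreA is the DNA-binding repressor of carbon catabolite repression in filamentous fungi. While glucose or another preferred sugar is present, it keeps down genes for the use of other carbon sources, among them genes for plant cell wall-degrading enzymes and sugar transporters. In Penicillium oxalicum its loss is known for raised cellulase production, whereas ClrB activates cellulase genes. Cellulase genes answer to both an inducer and the repressor. The 172 genes described here are among those with more RNA without creA that did not reach a difference of 1 between cellulose and glucose in M12. The pseudocount of 1 shrinks differences of low genes, and with a pseudocount of 0.1 the M12 difference was 1 or more for 26 of the 172. PDE_02203, at 58, 53 and 39 fragments in M12 on cellulose against 1, 4 and 3 on glucose, is such a gene. The table gives locus tags only, and 0 of the 9976 tags matched the RefSeq gene list of strain HP7-1, so no role or sequence can be stated for these genes and they are given by tag.

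The libraries held 10129672 to 18361206 fragments. The tag taken as creA was at 2, 1 and 0 fragments in the creA deletion libraries and at 6951 to 9431 in M12 on cellulose. The clrB tag stood at 465, 488 and 456 FPKM in gClrBID on glucose, against 10.4, 9.75 and 9.996 FPKM in M12 on glucose. On cellulose it was lower in gClrBID, at 56.0, 76.2 and 88.8 FPKM, against 159.96, 148 and 149.7 FPKM in M12. The clrB level thus goes with the overexpression label on glucose and against it on cellulose, and gClrBID below means the libraries so labelled. The median creA deletion minus M12 difference of all tested genes was -0.28, and scaling by median of ratios shifted it by 0.28. Under that scaling all 172 genes stayed higher in the creA deletion by at least 1.17, and the same rule found 334 genes, 162 of them among the 172. brlA, the regulator of conidiation in this fungus, stood at 346, 335 and 271 FPKM in the creA deletion, at 62.8, 65.5 and 58.5 FPKM in gClrBID on cellulose, at 35.3, 41.4 and 50.2 FPKM in M12 on cellulose and at 1.90 to 3.003 FPKM in M12 on glucose. The labels call the tissue mycelia, and the part of brlA's difference in the results below was not tested. In such bulk samples fewer cells of a type and less RNA per cell cannot be told apart.

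Outside the creA deletion the 172 genes ranged from silent to strongly transcribed. Their median level was 21.3 FPKM in the creA deletion on cellulose, 3.45 in gClrBID and 2.88 in M12 on cellulose, 4.13 in gClrBID on glucose and 4.22 in M12 on glucose. Over all tested genes the median was 24.3 FPKM in the creA deletion and 28.9 FPKM in M12 on cellulose. In the creA deletion the genes lay near the median of all genes, and elsewhere well below it. The difference between the creA deletion and M12 on cellulose had a median of 1.59 and reached 7.44 for PDE_01076. It was at least 2 for 63 genes and at least 3 for 29, against 2.49% and 1.40% of all tested genes, a difference that the choice of genes fixes. Every creA deletion library was above every M12 cellulose library for 170 of the 172 genes, against 22.0% of all tested genes, and the exceptions, PDE_05657 and PDE_07761, had at most 15 fragments in any creA deletion library.

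Together the 172 genes held 1.81%, 1.85% and 1.81% of the fragments in the creA deletion libraries. They held 0.600%, 0.583% and 0.561% in gClrBID on cellulose, against 0.459%, 0.479% and 0.478% in M12 on cellulose. On glucose they held 1.39% to 1.42% in gClrBID and 1.53% to 1.54% in M12. That the share was higher in the creA deletion than in M12 on cellulose is fixed by the choice of genes. The condition on cellulose in M12 also bears on the share in M12 on glucose. All these shares rest in part on single genes. PDE_07836 alone held 29.1% to 29.2% of the group's fragments in M12 on glucose, and the highest gene of the creA deletion libraries, PDE_07163, 10.1% to 10.5%. Without the highest gene of each library the mean share was 1.63% in the creA deletion, 0.410% in M12 on cellulose, 0.940% in gClrBID on glucose and 1.09% in M12 on glucose.

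**Figure D1:**
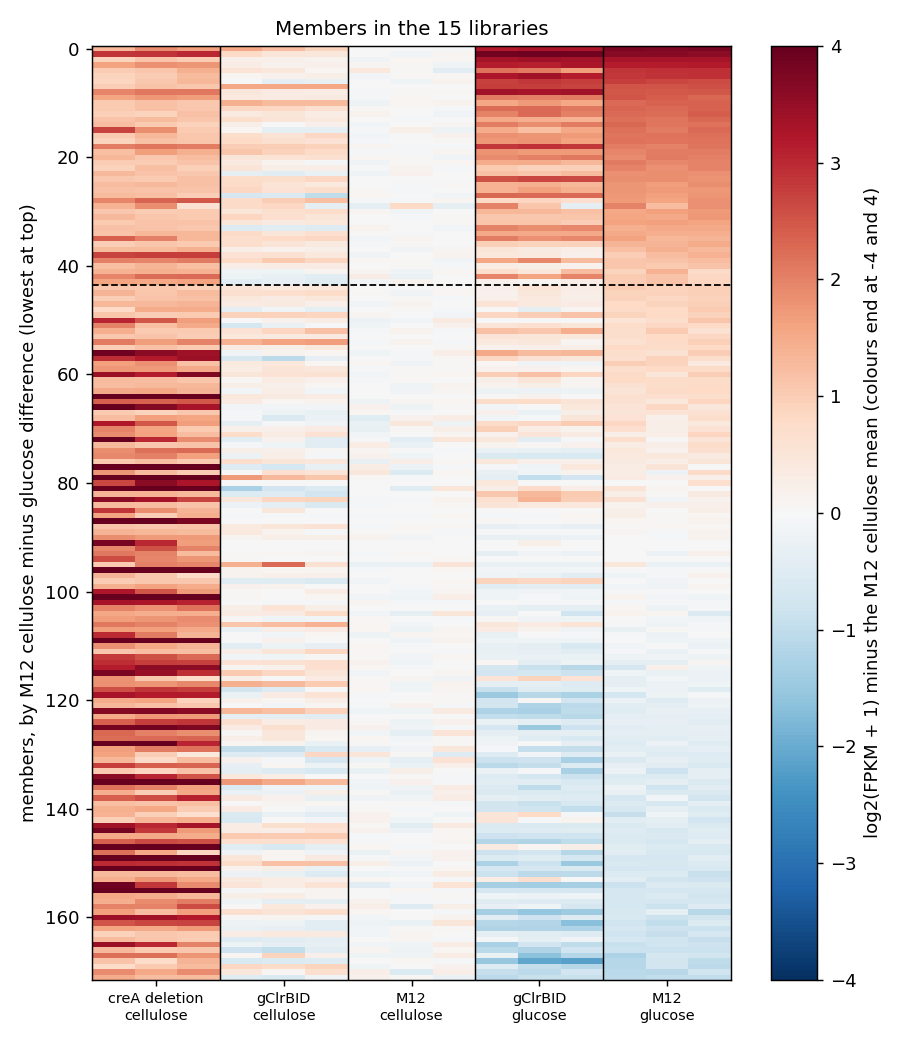
Level of the 172 genes (1 row each) in the 15 libraries (columns, 3 per group), as log2(FPKM + 1) minus the gene's mean in M12 on cellulose. Rows are ordered by the M12 cellulose minus glucose difference, and the dashed line ends the 44 genes that were lower on cellulose by at least 1; the creA deletion columns are red throughout by the choice of genes, whereas the M12 glucose means are at 1 or more above the line and between -1 and 1 below it.

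Of the 8 genes with the largest differences, 4 stayed under 1 FPKM in every library outside the creA deletion. PDE_01076 stood at 205, 312 and 319 FPKM in the creA deletion libraries. It stood at 0.764, 0.879 and 0.305 FPKM in gClrBID on cellulose, against 0.554, 0.512 and 0.689 FPKM in M12 on cellulose, and at 0, 0 and 0.0452 FPKM in M12 on glucose. It was thus under 1 FPKM everywhere but in the creA deletion. At that low level M12 had 11, 11 and 16 fragments on cellulose, against 0, 0 and 1 on glucose. The preceding gene by tag, PDE_01075, had the same pattern, with 87.6, 133 and 129.99 FPKM in the creA deletion, 0.589, 0.665 and 0.503 FPKM in M12 on cellulose and 0 fragments in all 6 glucose libraries. Its M12 cellulose libraries held 9, 11 and 9 fragments.

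PDE_09474 stood at 249, 172 and 114 FPKM in the creA deletion, against 0.143, 0 and 0.245 FPKM in M12 on cellulose, from 1, 0 and 2 fragments. The creA deletion libraries spanned more than a 2-fold range, and all were far above the rest. PDE_09551 stood at 44.2, 61.4 and 64.2 FPKM in the creA deletion and at 0.0629, 0 and 0.377 FPKM in M12 on cellulose. PDE_09279 stood at 99.5, 84.2 and 113 FPKM in the creA deletion and at 0.650, 0.601 and 0.926 FPKM in M12 on cellulose. For both, the M12 glucose libraries were lower still or equally low, at 0.244 FPKM or less.

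PDE_09491, the longest of these genes with a coding length of 6426 bases, stood at 200.1, 162 and 133 FPKM in the creA deletion, at 1.44, 1.34 and 1.40 FPKM in M12 on cellulose and at 2.69, 2.84 and 2.93 FPKM in M12 on glucose. Its M12 libraries were lower on cellulose than on glucose without overlap. PDE_06114, a short gene of 237 bases, stood at 251, 174 and 98.1 FPKM in the creA deletion and at 2.79, 1.72 and 4.24 FPKM in M12 on cellulose. Its creA deletion libraries spanned more than a 2-fold range. PDE_07897 was the strongest of the 8 largest differences, at 1454, 1521 and 1718 FPKM in the creA deletion, 123, 93.1 and 81.2 FPKM in gClrBID on cellulose and 38.7, 35.4 and 38.2 FPKM in M12 on cellulose. It was also the only gene of these 8 that was above 10 FPKM in every library, with 47.3, 42.7 and 42.7 FPKM in M12 on glucose.

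**Figure D2:**
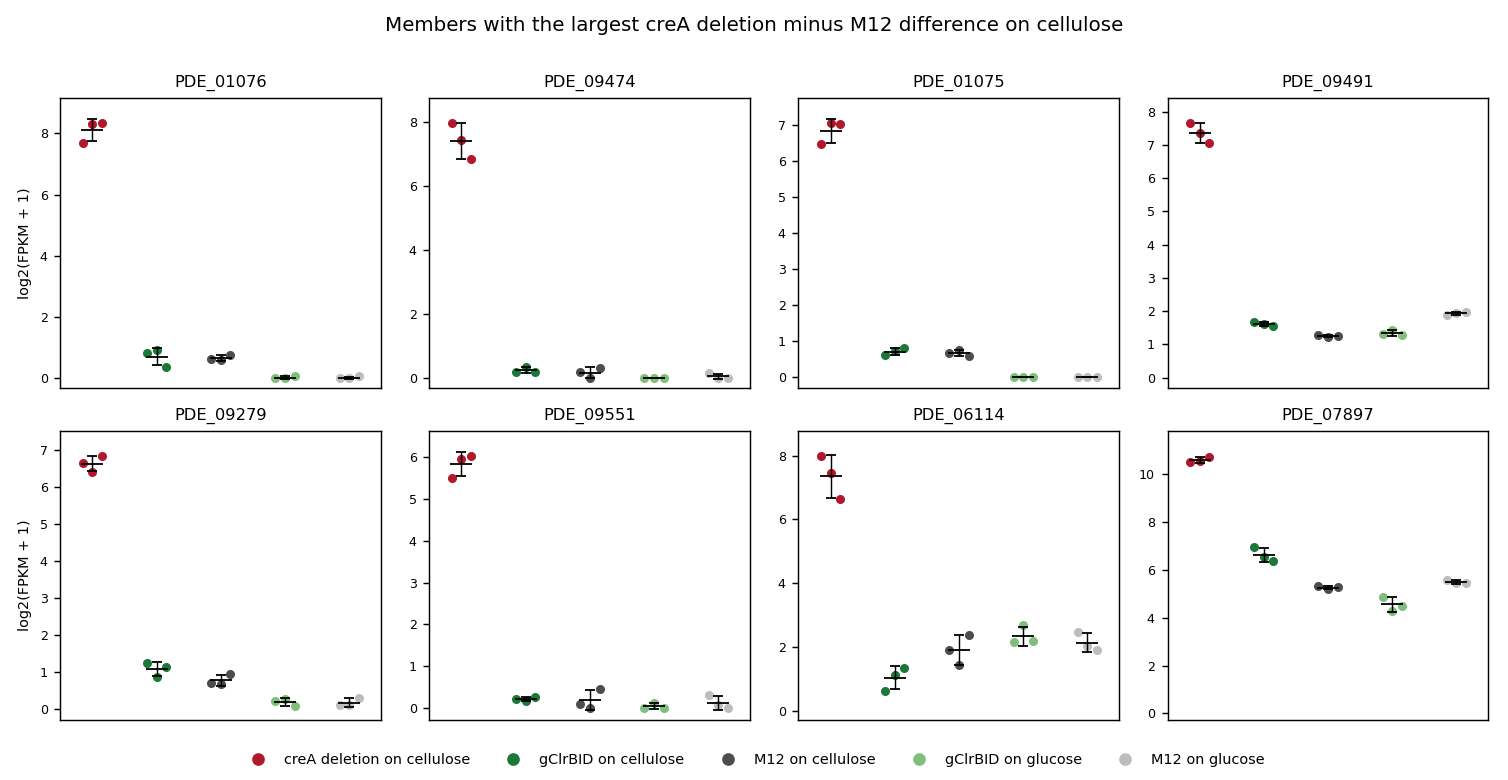
Level of the 8 genes with the largest creA deletion minus M12 difference on cellulose, as log2(FPKM + 1) per library; points are the 3 libraries of a group, bars the mean ± SD. The creA deletion libraries lie apart from all others in each panel, and PDE_07897 (lower right) is the one gene with a level above 10 FPKM in all other groups.

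A group of 23 genes, 13.4% of the 172, stayed under 1 FPKM in all 12 libraries outside the creA deletion. Among all tested genes there were 25 such genes, or 0.285%, and such genes pass the filter on low values only through the creA deletion libraries. Of the 23, 6 reached a mean of 10 FPKM in the creA deletion, namely PDE_01076, PDE_09474, PDE_01075, PDE_09551, PDE_06621 and PDE_01339. PDE_01339 stood at 20.3, 15.6 and 12.6 FPKM in the creA deletion and at 0 fragments in all 3 M12 cellulose libraries. With 3 fragments over the M12 group as a floor it was at least 505-fold higher. PDE_00908 had 135 fragments over the creA deletion libraries and 0 in all 12 others, which makes it at least 41.8-fold higher than in M12 on cellulose on the same floor. These limits cover counting error only.

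Other genes with a high level in the creA deletion had smaller differences. PDE_01358, of 483 bases, stood at 2174, 2553 and 2460.2 FPKM in the creA deletion and at 385, 407 and 440.4 FPKM in M12 on cellulose. In M12 on glucose it was lower, at 274, 249.6 and 309.8 FPKM. PDE_02381 stood at 1524, 1462 and 1499.9 FPKM in the creA deletion and at 659, 673 and 637 FPKM in M12 on cellulose. PDE_03026 stood at 608, 606 and 599 FPKM in the creA deletion, 444, 429.8 and 437 FPKM in gClrBID on cellulose and 201, 215 and 226 FPKM in M12 on cellulose. All 3 kept a narrow spread between libraries, and none of their creA deletion libraries overlapped with M12. PDE_04869 stood at 497, 564 and 516 FPKM in the creA deletion and at 184, 176 and 189.5 FPKM in M12 on cellulose.

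The libraries of the creA deletion were not alike for all members. The level was at least 2-fold higher, on the log2(FPKM + 1) scale, in creA deletion library 1 than in library 3 for 20 genes, and for 0 genes the other way round. Over all 8765 tested genes these counts were 55 and 15, so 20 of the 55 belong to the 172 genes. For all 20, library 2 lay between the others. The same 20 genes had a median log2 difference between libraries 1 and 3 of -0.04 in gClrBID and of -0.07 in M12 on cellulose, against 1.49 in the creA deletion. The choice of the 20 genes fixes that the last value is at least 1. Examples, chosen after their values were seen, were PDE_01274 at 21.2, 9.67 and 3.97 FPKM, PDE_01779 at 20.9, 10.1 and 4.06 FPKM and PDE_05065 at 25.6, 18.6 and 8.61 FPKM. PDE_01076 and PDE_01075 went against this pattern, with library 1 the lowest. brlA was also lowest in library 3, by less than 2-fold, and its part in this was not tested. Without creA deletion library 1 the rule found 150 genes, 142 of them among the 172, and without library 3 it found 149, with 141 shared. These counts also lose genes that passed the filter only through the 3 creA deletion libraries.

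Against glucose the group fell into 2 patterns in M12, since the rule had left out genes that were higher on cellulose by 1 or more. For 44 genes M12 was lower on cellulose than on glucose by at least 1 (25.6%, against 18.9% of all tested genes), and for the other 128 it was within 1. All tested genes include the 22.0% that were higher on cellulose by 1 or more, so these 2 shares are not alike. Of the tested genes without them, 1660 were lower by at least 1 and 5176 within 1. The split of the 172 genes was near that. The first 44 were well transcribed on glucose, with a median of 35.1 FPKM in the creA deletion on cellulose, 14.0 FPKM in M12 on cellulose and 63.1 FPKM in M12 on glucose. The other 128 had medians of 15.3 FPKM in the creA deletion on cellulose, 1.74 FPKM in M12 on cellulose and 1.46 FPKM in M12 on glucose. The creA deletion difference was the smaller in the first pattern, with a median of 1.18 for the 44 and 1.78 for the 128 genes.

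Among the 44 genes the creA deletion on cellulose mostly stood between M12 on cellulose and M12 on glucose. As a share of the mean in M12 on glucose, its level had a median of 64.5%, with a range of 20.5% to 318%. The share in gClrBID on cellulose had a median of 34.3% and that in M12 on cellulose of 22.7%. The creA deletion was within 1 log2 unit of the M12 glucose level for 28 of the 44, below it for 14 and above it for PDE_08300 and PDE_06285. Of the 128 genes, 109 were above the M12 glucose level by at least 1 and 19 within it. Over all tested genes, 16.4% were above and 23.7% below in this difference, which the rule fixes in part.

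PDE_07836, of 474 bases, was the most abundant of all 172 genes on glucose. It stood at 1760.3, 2109 and 1929 FPKM in the creA deletion and 875, 1011 and 996 FPKM in M12 on cellulose, against 9444, 9408 and 9413 FPKM in M12 on glucose. The creA deletion libraries were above M12 on cellulose without overlap, and both were far below glucose. PDE_04823 had the largest deficit on cellulose in M12, with a difference of -3.76. It stood at 103, 151 and 131 FPKM in the creA deletion and 41.1, 40.8 and 39.2 FPKM in M12 on cellulose, against 556, 547 and 569 FPKM in M12 on glucose.

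Among the 5 genes with the largest deficits, the creA deletion was nearest to M12 on glucose for PDE_03102. It stood at 111, 113 and 122 FPKM in the creA deletion and 14.4, 13.2 and 15.5 FPKM in M12 on cellulose, against 191, 189 and 184 FPKM in M12 on glucose. PDE_02091 stood at 287, 332 and 319.96 FPKM in the creA deletion and 99.4, 95.4 and 83.2 FPKM in M12 on cellulose, against 819.5, 814 and 834 FPKM in M12 on glucose. PDE_02229 stood at 7.10, 7.65 and 9.75 FPKM in the creA deletion and 4.30, 3.13 and 1.91 FPKM in M12 on cellulose, against 27.8, 28.985 and 29.6 FPKM in M12 on glucose. In none of these 5 genes did a creA deletion library reach a library of M12 on glucose.

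**Figure D3:**
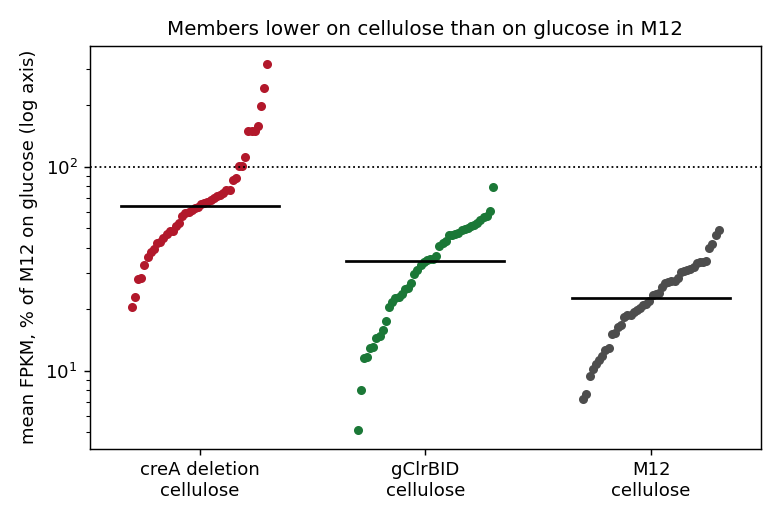
Mean level on cellulose of the 44 genes that were lower on cellulose than on glucose in M12, as percent of the mean in M12 on glucose (log axis), for the creA deletion, gClrBID and M12. Each point is a gene, ordered within its group, the line is the median (64.5%, 34.3% and 22.7%), and the dotted line marks the M12 glucose level.

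The libraries of gClrBID on cellulose were not used to choose the genes. They were compared with M12 on cellulose by limma on log2(FPKM + 1), fitted over all 8765 tested genes with Benjamini-Hochberg adjustment, and genes with an adjusted p under 0.05 are called. The M12 cellulose libraries are shared with the rule, which favours genes that are low in them. This leans the comparison towards higher calls for all 172 genes, so the counts of genes called are a description. In these libraries labelled gClrBID the clrB tag was lower than in M12, by 1.06 on the log2 scale (adjusted p = 6.63e-07). Of the 172 genes, 66 were called higher in gClrBID (38.4%, against 27.3% of all tested genes) and 19 lower (against 32.1%), and 87 were not called. The median log2 fold change was 0.19 over the 172 genes and -0.02 over all tested genes. At a minimum of 1 log2 unit 12 genes were called higher (6.98%, against 4.23%). Falls of that size made up 5.72% of all tested genes, whereas in the group the lowest value was -0.87 for PDE_06114. On this scale a gene under 1 FPKM in M12 cannot fall by 1. A mean under 1 FPKM in M12 on cellulose was found for 46 of the 172 genes (26.7%, against 4.68% of all tested genes). The floor thus sets the counts of falls in part.

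The 44 genes that were lower on cellulose in M12 were picked once more for low values in the same M12 cellulose libraries. This leans the comparison further towards higher calls, so their counts too are a description. Of the 44 genes, 31 were called higher in gClrBID (70.5%), 4 lower (9.09%) and 9 not called, with a median log2 fold change of 0.47. Of the 1660 tested genes with the same pattern in M12, 49.5% were called higher and 15.1% lower, with a median of 0.20. Of the other 128, 35 were called higher (27.3%), 15 lower (11.7%) and 78 not called, with a median of 0.11. Of the 5176 tested genes within 1 in M12, 22.7% were called higher and 29.3% lower, with a median of -0.02. The share of the 128 called higher was thus near that of all tested genes. A test of the difference between these lists was not made.

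PDE_02377 stood at 111, 112 and 112 FPKM in gClrBID, against 37.7, 37.6 and 36.988 FPKM in M12, a rise of log2 1.55 ± 0.05 (SE) (adjusted p = 2.39e-13). The gClrBID libraries were also above those of the creA deletion, at 74.7, 84.4 and 80.6 FPKM. PDE_05644 shared this order, with 71.7, 64.5 and 63.7 FPKM in gClrBID, 54.6, 60.3 and 56.5 FPKM in the creA deletion and 22.4, 27.6 and 28.6 FPKM in M12, and a log2 fold change of 1.32 ± 0.08 (SE) against M12 (adjusted p = 1.11e-09). These were the only 2 of the 172 genes whose mean of log2(FPKM + 1) was higher in gClrBID than in the creA deletion. Over all 8765 tested genes this held for 5862. The genes were chosen for high levels in the creA deletion, which fixes this contrast in part.

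PDE_00015 stood at 23.5, 19.8 and 16.4 FPKM in gClrBID and 5.75, 7.14 and 6.07 FPKM in M12, a rise of log2 1.51 ± 0.11 (SE) (adjusted p = 1.51e-08). In the creA deletion it was at 182, 168 and 197 FPKM, so gClrBID covered a small part of that difference. PDE_08956 stood at 4.64, 5.65 and 5.88 FPKM in gClrBID and 1.08, 1.38 and 1.06 FPKM in M12, a rise of log2 1.55 ± 0.14 (SE) (adjusted p = 1.78e-07). PDE_07897, given above, rose by log2 1.36 ± 0.14 (SE) in gClrBID (adjusted p = 6.16e-07). None of the gClrBID libraries of these genes overlapped with M12.

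The largest falls in gClrBID were smaller. Among genes with a mean of at least 5 FPKM in the higher group, PDE_07141 stood at 5.68, 6.14 and 4.31 FPKM in gClrBID and 10.3, 9.82 and 8.94 FPKM in M12, which is -0.75 ± 0.10 (SE) on the log2 scale (adjusted p = 9.67e-06). PDE_07684 stood at 124, 125 and 106 FPKM in gClrBID and 183, 179.5 and 183 FPKM in M12, which is -0.62 ± 0.08 (SE) (adjusted p = 6.5e-06). PDE_09333, PDE_06333 and PDE_07720 fell by 0.56, 0.51 and 0.50 on the log2 scale (adjusted p = 0.0108, 1.14e-06 and 1.53e-05). In the creA deletion all 5 were higher than M12, as the choice of genes fixes. PDE_07684 for example was at 473, 474 and 445 FPKM in the creA deletion.

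The largest creA deletion differences met other answers in gClrBID. PDE_01076, PDE_01075, PDE_09474 and PDE_09551 had log2 fold changes between gClrBID and M12 on cellulose of 0.04, 0.04, 0.07 and 0.03, with adjusted p values of 0.843, 0.832, 0.781 and 0.883. All 4 were under 1 FPKM in both groups, where a pseudocount of 1 understates differences. PDE_09279 had 0.31 ± 0.14 (SE) (adjusted p = 0.0658), a value that passed the threshold under median-of-ratios scaling (adjusted p = 0.049) and other alternatives. PDE_06114 fell by 0.87 (adjusted p = 0.0218) and PDE_09491 rose by 0.35 (adjusted p = 0.0198). The first call was lost without gClrBID library 1 (adjusted p = 0.096), without M12 library 3 (0.108) or with voom weights on the fragments (0.422), and the second without gClrBID library 1 (0.0577) or M12 library 2 (0.0523).

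**Figure D4:**
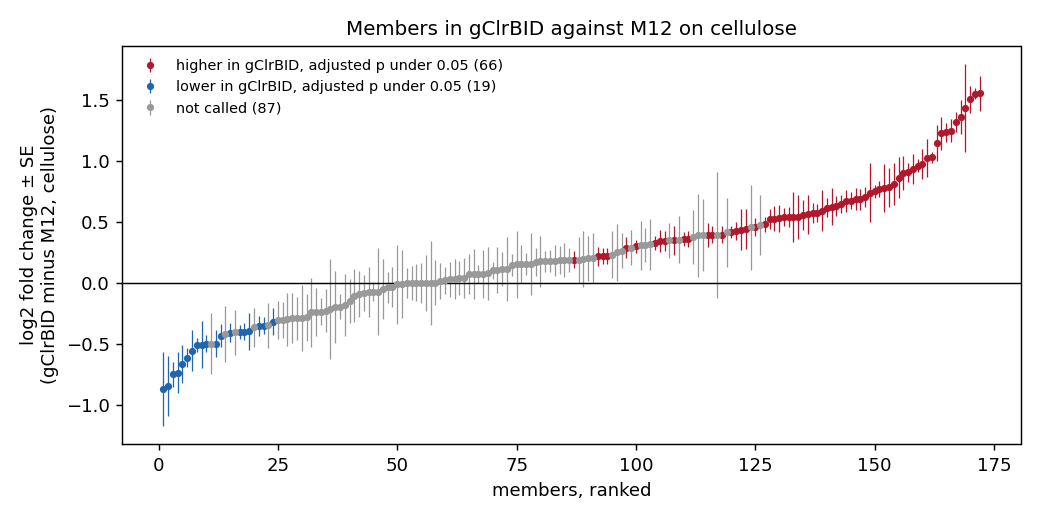
Log2 fold change ± SE of the 172 genes between gClrBID and M12 on cellulose (vertical axis), from limma on log2(FPKM + 1), with the genes ranked by it (horizontal axis). The 66 genes called higher reach 1.55 and the 19 called lower reach -0.87, and 87 were not called.

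Set beside each other on cellulose, the creA deletion was higher than gClrBID by at least 1 for 126 of the 172 genes and within 1 for 46. Over all tested genes 5.93% were higher by at least 1. The creA deletion libraries chose the genes, so this difference was not tested.

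The carbon response within gClrBID was tested in the same fit. Between cellulose and glucose 61 of the 172 genes were called higher on cellulose (against 49.4% of all tested genes) and 56 lower (against 34.3%), which are 35.5% and 32.6% of the 172. At a minimum of 1 log2 unit these were 22 higher (against 27.3%) and 31 lower (against 13.5%). The rule had left out genes that M12 raised on cellulose by 1 or more, which were 22.0% of all tested genes. These differences from the shares of all tested genes are thus fixed in part by the rule. Of the 44 genes that were lower on cellulose in M12, 39 (88.6%) were called lower in gClrBID as well and 5 not called, with a median log2 fold change of -1.17. Of the 1660 tested genes with the same pattern in M12, 80.9% were called lower. The gClrBID level on glucose of all 172 genes had been held within 1 of M12 by the rule, on the log2(FPKM + 1) scale. With a pseudocount of 0.1, 28 of the 172 were outside this limit. Of the other 128 genes, 61 (47.7%) were called higher, 17 (13.3%) lower and 50 not called, with a median of 0.29, against 46.8% higher and 30.5% lower of the 5176 tested genes within 1 in M12.

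PDE_03102, PDE_07836 and PDE_07141 had the largest falls among the genes named here. PDE_03102 stood at 25.1, 20.7 and 20.010 FPKM in gClrBID on cellulose, against 221, 229 and 222 FPKM on glucose, a log2 fold change of -3.30 ± 0.07 (SE) (adjusted p = 5.41e-16). PDE_07836 stood at 1114, 1110.05 and 1053 FPKM on cellulose, against 9624, 10064 and 9569 FPKM on glucose, with -3.16 ± 0.07 (SE) (adjusted p = 5.36e-16). PDE_07141 stood at 5.68, 6.14 and 4.31 FPKM on cellulose, against 51.2, 50.7 and 50.4 FPKM on glucose, with -3.03 ± 0.10 (SE) (adjusted p = 6.66e-14). In each case the libraries of the 2 carbon sources lay far apart. In the other direction PDE_07897 rose by log2 2.07 ± 0.14 (SE) on cellulose (adjusted p = 7.24e-10), and PDE_00015 by 2.00 ± 0.11 (SE) (adjusted p = 6.24e-11). On glucose PDE_07897 stood at 28.5, 18.4 and 21.7 FPKM in gClrBID, a difference of -0.94 from M12 on glucose. Part of its rise within gClrBID thus lies in this lower glucose level. PDE_07897 and PDE_00015 were both among the genes that also rose in gClrBID over M12 on cellulose. Of the other genes with the 8 largest creA deletion differences, PDE_01076, PDE_01075 and PDE_09279 were called higher on cellulose at low levels. Their log2 fold changes were 0.68, 0.70 and 0.90 (adjusted p = 0.00119, 0.000239 and 1.79e-05). PDE_06114 was called lower, at -1.30 (adjusted p = 0.000939, or 0.211 with voom weights), and PDE_09474, PDE_09551 and PDE_09491 were not called.

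Members were next to each other by tag number more often than other genes were next to a member. Of the 172 genes, 21 (12.2%) had another member at the next or previous tag number, and of the 8593 other tested genes 262 (3.05%) had a member there. The order of the genes on chromosomes was not used here, and these shares are a description. The 21 genes formed 6 pairs and 3 runs of 3 tags.

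In the run PDE_01075 to PDE_01077, the first 2 genes are those described above. PDE_01077, the longest with 3792 bases, stood at 4.45, 6.36 and 7.24 FPKM in the creA deletion and 1.24, 0.895 and 0.894 FPKM in M12 on cellulose. All 3 genes were lowest in creA deletion library 1. The tags just before this run, PDE_01074 and PDE_01073, had means of 142 and 192 FPKM in the creA deletion and 7.26 and 36.1 FPKM in M12 on cellulose. They met the first condition of the rule, with differences of 4.11 and 2.38, but were higher on cellulose than on glucose in M12, by 2.18 and 5.19. The 2 tags after the run, PDE_01078 and PDE_01079, stayed under 1 FPKM in the mean of all groups.

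The run PDE_07265 to PDE_07267 was led by PDE_07267, with 97.2, 80.9 and 66.8 FPKM in the creA deletion and 1.92, 1.02 and 1.25 FPKM in M12 on cellulose. PDE_07265 stood at 7.11, 9.47 and 10.2 FPKM in the creA deletion and 0.572, 0.331 and 0.734 FPKM in M12 on cellulose. PDE_07266 stood at 6.18, 6.25 and 10.024 FPKM in the creA deletion and 1.20, 0.278 and 1.16 FPKM in M12 on cellulose. The creA deletion libraries of all 3 lay above M12. Their neighbours by tag went the other way. PDE_07264 and PDE_07268 had creA deletion minus M12 differences of -1.24 and -2.51.

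In the run PDE_03769 to PDE_03771 the 3 genes differed in their carbon response. PDE_03769 stood at 85.5, 92.7 and 99.3 FPKM in the creA deletion, 27.4, 26.1 and 25.4 FPKM in M12 on cellulose and 25.8, 24.5 and 23.2 FPKM in M12 on glucose, and the M12 libraries overlapped between the carbon sources. PDE_03771 stood at 109, 122 and 115 FPKM in the creA deletion, 34.4, 37.6 and 34.9 FPKM in M12 on cellulose and 208, 194 and 179 FPKM in M12 on glucose. PDE_03770, a short gene of 369 bases between them, stood at 1.96, 2.03 and 1.92 FPKM in the creA deletion and 0.199, 0 and 0.170 FPKM in M12 on cellulose, from 1, 0 and 1 fragments. On glucose M12 was higher, at 1.08, 1.97 and 0.894 FPKM from 7, 13 and 5 fragments. The tag before the run, PDE_03768, had a mean of 595 FPKM in the creA deletion and 84.5 FPKM in M12 on cellulose, and its cellulose minus glucose difference of 4.94 in M12 kept it outside the rule.

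**Figure D5:**
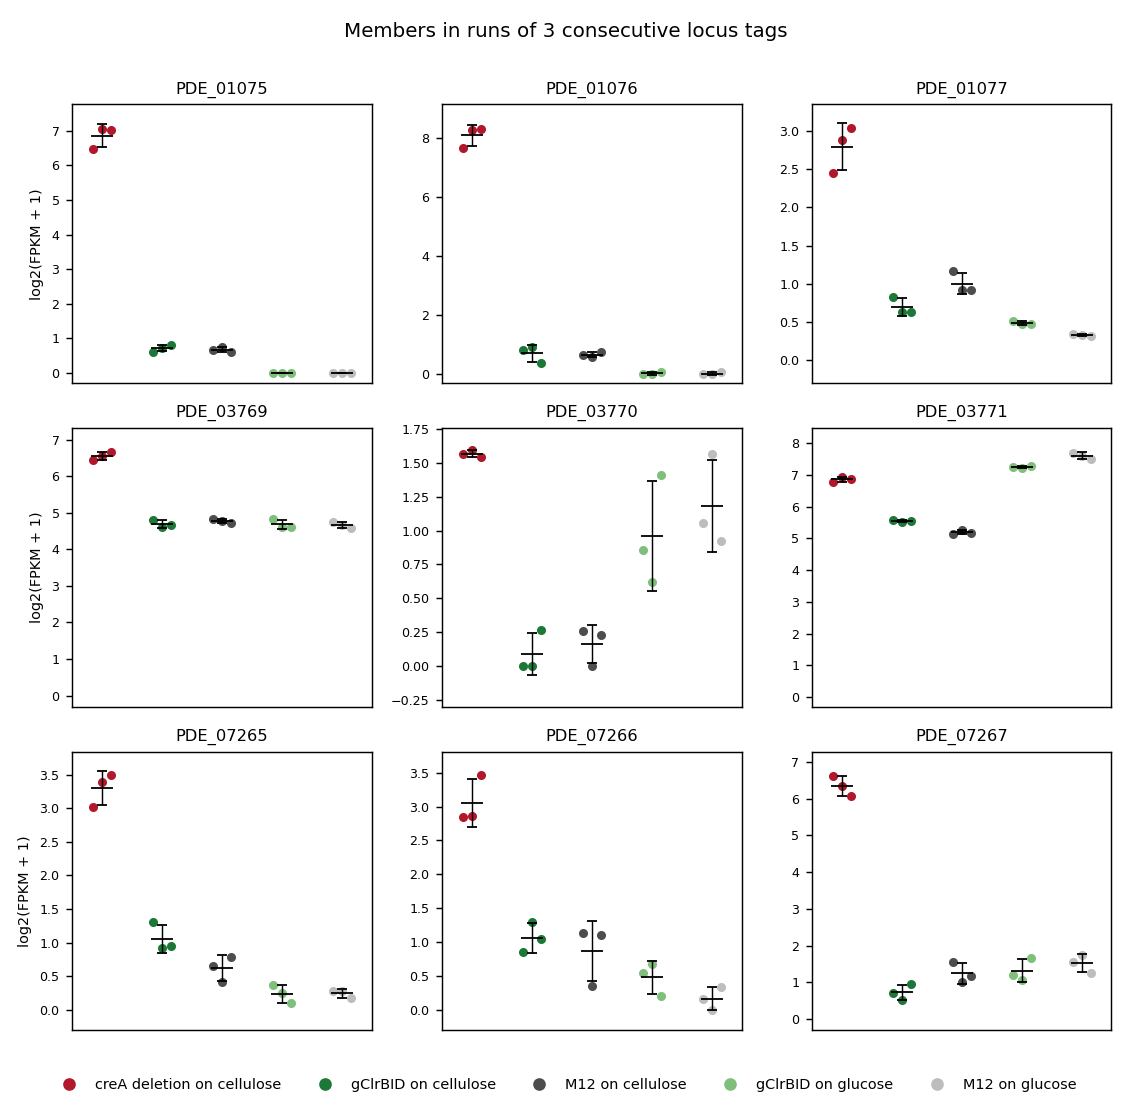
Level of the 9 genes in the 3 runs of 3 consecutive locus tags (1 row per run), as log2(FPKM + 1) per library; points are the 3 libraries of a group, bars the mean ± SD. The runs PDE_01075 to PDE_01077 and PDE_07265 to PDE_07267 are low in all groups but the creA deletion, whereas PDE_03771 is highest in M12 on glucose.

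The coding length worked back from the table was not used by the rule. It is the smallest length that makes a gene's values whole, so a gene with few fragments may have a multiple of the stated length and of the stated fragments. Its median was 1143 bases for the 172 genes (quartiles 707 and 1655) and 1215 bases for the 8593 other tested genes (quartiles 738 and 1821).

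None of 16 tags named here from prior knowledge, for genes of cellulose and starch breakdown, for their regulators and for brlA, was among the 172. The files do not pair these names with the tags, and the values of the creA and clrB tags given above are their only checks. They comprise the cellulase genes cel6A, cel7A-2, cel5B and cel7B, the gene cel61A, the beta-glucosidase genes bgl2 and PDE_02736, the xylanase gene xyn10A, the amylolytic genes amy15A and amy13A, the cellodextrin transporter gene cdtC and the regulator genes clrB, creA, xlnR, amyR and brlA. All 16 failed the condition on cellulose in M12, and 10 of them met that on the creA deletion, against 22.0% and 5.43% of all tested genes. cel61A, for a lytic polysaccharide monooxygenase, brlA and amy13A, for an alpha-amylase, failed the cellulose condition alone, with M12 cellulose minus glucose differences of 4.63, 3.62 and 3.59. Between gClrBID and M12 on cellulose 13 of the 16 were called higher and 2 lower, against 27.3% and 32.1% of all tested genes. The 2 called lower were clrB and creA.

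The limits of the group were not marked by a gap. Just inside the limit of 1 on the creA deletion difference were PDE_05444 (1.0004) and PDE_03719 (1.003), and just outside PDE_05183 and PDE_05083 (both 0.998). Within 0.1 of this limit were 27 of the 172 genes on the inside and 34 genes on the outside. On the M12 cellulose minus glucose difference, PDE_02203 (0.9995) and PDE_01337 (0.999) were just inside and PDE_07234 (1.08) and PDE_05763 (1.11) just outside. On the gClrBID difference on glucose, PDE_02309 (0.995) and PDE_03719 (0.943) were just inside the upper limit and PDE_00344 (1.02) and PDE_09701 (1.15) just outside. At its lower limit PDE_04094 (-0.992) and PDE_04482 (-0.969) were just inside and PDE_09040 (-1.003) and PDE_05929 (-1.02) just outside.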

How the data were processed

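Messenger RNA of mycelia was sequenced as stranded libraries, per the labels' protocols. The authors deposited 1 table of FPKM values, with 1 column per library. Columns were assigned by sample title. The submitters' processing notes name featureCounts 1.5.0-p1, HISAT2 2.0.0, CASAVA 1.8 and DESeq2 without their roles. Build, annotation and strand setting are not given in the sources used here, so fragments shared by overlapping or near-identical genes could not be assessed.

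Whole fragments, totals and coding lengths (the smallest multiple of 3 bases that made a gene's values whole) were worked back from the FPKM steps for all 9789 genes above 0. FPKM recomputed from them differed from the deposited values by at most 0.00092 in tested genes. Genes with 1 FPKM in at least 3 libraries were fitted with limma 3.58.1 in R 4.3.3 on log2(FPKM + 1), with 1 mean per group and an intensity trend. These fold changes understate those of low genes. The fit was also run on simulated data, drawn from the M12 cellulose means with a common spread. Changes were placed only in genes above a minimum of fragments, so that run does not cover low genes. No result of it is used here. Pairs of replicates gave a chi-square per gene of 3.11 to 22.1, where counting error alone gives about 1, so none was counted as a duplicate. Same-numbered libraries did not deviate together (Pearson's r across genes of -0.097 to -0.002 in 6 pairs).

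The members and lists were chosen with earlier results of these data known. Named genes were the 8 largest creA deletion differences, the 6 highest creA deletion levels, the 5 highest and 5 lowest gClrBID fold changes on cellulose (called, 5 FPKM or more), the 5 largest deficits of M12 on cellulose, the 2 nearest genes on either side of each limit, and runs of 3 tags. Alternatives are given in the closing section.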

Additional observations from a re-analysis of the deposited data

How the results depend on the processing

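The number of genes that met the rule was 172, and 164 with a pseudocount of 0.1 (126 shared), 159 after rescaling to TPM (156 shared), 175 without a filter on low values and 136 with a filter of 5 FPKM. Median-of-ratios scaling gave 334 and a limit of 1.5 on the creA deletion difference gave 95. Leaving out 1 library at a time gave 146 to 176. For gClrBID against M12 on cellulose, leaving out 1 library gave 60 to 68 genes called higher and 16 to 21 lower, and for the carbon response of gClrBID 58 to 62 higher and 53 to 56 lower. Pseudocount, scaling, filter, trend, voom weights and a fit of the 2 groups alone kept these 4 counts within 1.5 times. A replicate block as a term for the replicate numbers, which did not pair the libraries, gave 66 and 18 genes in the first comparison and 60 and 55 in the second.

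For the genes named above, 1067 of the alternative values kept direction and side of the threshold, 34 lost a call, 18 gained a call and 1 turned. It was PDE_03769 between cellulose and glucose in gClrBID, at 0.01 (adjusted p = 0.885), which became -0.18 (adjusted p = 0.042) under median-of-ratios scaling, where the median of all tested genes moved by -0.17. The cause of the other lost and gained calls was not tested. As a share of summed FPKM the 172 genes held 1.64% in the creA deletion, 0.639% in gClrBID on cellulose, 0.473% in M12 on cellulose, 1.59% in gClrBID on glucose and 1.55% in M12 on glucose. As a share of fragments the means were 1.82%, 0.582%, 0.472%, 1.40% and 1.53% in the same order. Without the highest gene of each library these shares of fragments were 1.63%, 0.530%, 0.410%, 0.940% and 1.09%. Without the highest gene, gClrBID on glucose was thus nearer to M12 on cellulose than to the creA deletion, whereas with it the reverse held. The gene left out was PDE_07163 in the creA deletion and in M12 on cellulose, and PDE_07836 in the other groups. The shares without it therefore rest on unlike sets of genes. Genes under 1 FPKM rest on few fragments, and the pseudocount of 1 understates their differences.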
